A study of Mus musculus with 10 samples.

Results

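The immediate early genes are genes whose transcription rises within minutes of a stimulus and needs no new protein. Of the 14300 genes counted in cells sorted from the embryonic mouse brain, 10 were followed here, namely Fos, Fosb, Jun, Junb, Egr1, Ier2, Arc, Npas4, Nr4a1 and Dusp1. They were chosen by symbol, and all 10 were in the table and were tested. Tamoxifen was given to pregnant Grem1creERT; Rosa26LSLTdtomato mice on the C57BL/6J strain, and embryos were collected 24 h later, at E14.5. The tamoxifen-dependent Cre of this line is driven by Grem1, and the red label is permanent once Cre has acted, so a TdTomato+ cell either drove Cre around the time of tamoxifen or descends from one that did. Live DAPI- cells of the dorsal telencephalon, with the meninges removed, were dissociated with enzymes and sorted before RNA was extracted, and both populations came from tamoxifen-treated animals of 1 genotype, differing at Rosa26 in whether Cre had removed the stop before TdTomato. TdTomato+ cells (labelled Grem1 positive) and TdTomato- cells (labelled Grem1 negative) gave 5 libraries each, a pair for each of the mouse numbers 2 to 6.

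Fos, Fosb, Jun and Junb encode subunits of the dimeric transcription factor AP-1, and Egr1, Npas4 and Nr4a1 encode transcription factors of other families. In neurons, calcium entry and growth factors act through the MAP kinase pathway on SRF and its Elk partners, and through kinases on CREB bound at the cyclic AMP response element (CRE), to start their transcription. The messenger RNAs are short-lived, and Dusp1, a phosphatase that inactivates MAP kinases, and Arc, a postsynaptic protein, are among the products.

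Total counts were 23429034 to 27286180 per library. In CPM (reads of a gene per 1000000 counted reads, with the total scaled by the TMM method), Grem1 itself was at 60.7 to 68.4 CPM in the TdTomato+ libraries and at 5.004 to 7.004 CPM in the TdTomato- libraries. Of the markers of deep-layer glutamatergic neurons, 7 of 8 were higher in TdTomato+ cells and 1 was lower, whereas all 11 progenitor markers and all 8 GABAergic markers were lower. From RNA of sorted populations, a smaller number of cells expressing a gene and less of its RNA per cell cannot be told apart. RNA was taken after dissociation and sorting, so levels in the embryo and changes during preparation cannot be told apart either. Nor can differences between mouse numbers be told from differences between preparations, since the sources do not say which were prepared together. The sources used here do not say whether a mouse number is 1 embryo or several, and a number is called a mouse below. The libraries numbered 2, 3 and 4 held both Xist (554 to 1070 CPM), which is transcribed from the inactive X chromosome of female cells, and the Y-linked gene Eif2s3y (14.9 to 34.4 CPM). These libraries therefore held cells of both sexes, and so of more than 1 embryo. The libraries of mouse 5 held Xist at 1230 and 1580 CPM with Eif2s3y at 0.652 CPM or less, and those of mouse 6 held Eif2s3y at 32.9 and 51.9 CPM with Xist at 42.2 CPM or less.

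Most immediate early genes were lower in TdTomato+ cells. By edgeR's quasi-likelihood test with mouse number as a block, 8 of the 10 were lower at an adjusted p of 0.05 or less and 2, Junb and Nr4a1, were higher. Of all genes tested, 39.4% were lower and 37.9% were higher by the same rule, so that a call in either direction is common in this comparison. With the added limit of an absolute log2 fold change of 2, 4 genes (Fos, Fosb, Egr1 and Arc) were lower, against 9.74% of all genes. The median log2 fold change was -1.57 over the 10 genes and -0.0063 over all genes. For 5 genes (Fos, Jun, Egr1, Ier2 and Arc) every TdTomato+ library was under every TdTomato- library, as it was for 32.4% of all genes. Leaving out mouse 2, whose libraries stood apart as described further on, the counts of lower and higher genes stayed at 8 and 2, and Egr1 alone moved to a log2 fold change of -1.84, short of the limit. Without mouse 2, 6 genes had every TdTomato+ library under every TdTomato- library (35.6% of all genes) and 1 gene, Junb, had the opposite order (32.9% of all genes).

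**Figure D1:**
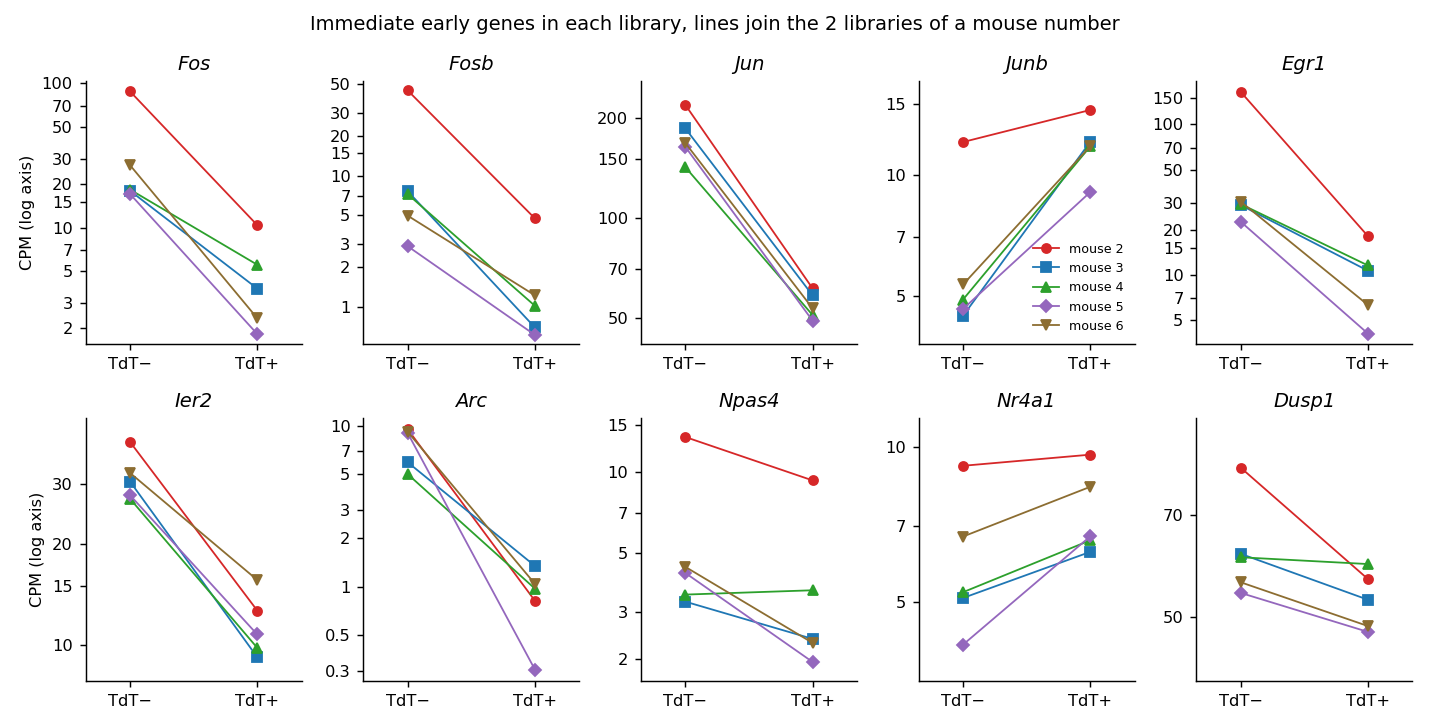
CPM (log axis) of each immediate early gene in the TdTomato- and TdTomato+ library of each mouse number, with a line joining the pair. The lines fall for most genes and rise for Junb and Nr4a1, and mouse 2 lies above the other 4 mice in the TdTomato- libraries in all 10 panels.

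Fos (chr12:85473890-85477273 of GRCm38, plus strand) is the founding member of the family that pairs with Jun proteins. In the TdTomato- libraries of mice 2 to 6 it was at 87.8, 17.97, 18.3, 17.1 and 27.04 CPM, and in the TdTomato+ libraries at 10.4, 3.77, 5.52, 1.83 and 2.35 CPM. The groups did not overlap, and the library of mouse 2 was the highest in both populations. The log2 fold change was -2.73 (SE 0.23, adjusted p = 4.7e-06), which is 6.63-fold lower in TdTomato+ cells, and the gene was lower in 5 of 5 mice. Fosb (chr7:19302696-19310051, minus strand), a close relative of Fos, was at 44.6, 7.60, 7.22, 2.89 and 4.95 CPM in the TdTomato- libraries and at 4.72, 0.694, 1.02, 0.609 and 1.22 CPM in the TdTomato+ libraries. It was lower in 5 of 5 pairs, but the TdTomato+ library of mouse 2 was above the TdTomato- library of mouse 5, so the groups overlapped. Its log2 fold change was -2.85 (SE 0.20, adjusted p = 1.6e-06).

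Jun (chr4:95049034-95052222, minus strand) had the steadiest ratio of the 10 genes. It was at 218, 186, 142, 163 and 168 CPM in TdTomato- libraries and at 61.3, 58.5, 51.0, 49.0 and 53.4 CPM in TdTomato+ libraries, without overlap. The log2 fold change was -1.67 (SE 0.05, adjusted p = 1.1e-08), and 7.28% of its exonic length is shared with Junos on the opposite strand. Junb (chr8:84974484-84978718, minus strand), a Jun relative that activates AP-1 sites less strongly, moved the other way. Its TdTomato- libraries were at 12.04, 4.46, 4.89, 4.64 and 5.33 CPM and its TdTomato+ libraries at 14.5, 12.1, 11.7, 9.04 and 11.8 CPM. Junb was higher in 5 of 5 pairs, with a log2 fold change of 1.00 (SE 0.16, adjusted p = 4.0e-04), and the single overlap between the groups came from the TdTomato- library of mouse 2. The log2 ratio of mouse 2 was 0.26, against 0.95 to 1.42 in the other mice. Of its exonic length, 7.52% is shared with Prdx2 on the opposite strand.

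Egr1, a zinc finger transcription factor, was at 164, 29.1, 29.5, 22.5 and 30.7 CPM in TdTomato- libraries and at 18.1, 10.7, 11.6, 4.09 and 6.33 CPM in TdTomato+ libraries. The groups did not overlap, and mouse 2 was highest and mouse 5 lowest in both. The log2 fold change was -2.16 (SE 0.25, adjusted p = 4.3e-05). Npas4 (chr19:4984355-4990316, minus strand), a transcription factor induced in neurons by calcium entry, was at 13.5, 3.28, 3.49, 4.20 and 4.43 CPM and at 9.29, 2.39, 3.62, 1.96 and 2.31 CPM respectively. The difference between populations was smaller than that of mouse 2 from the other mice, and the groups overlapped. Npas4 was lower in 4 of 5 mice, and in mouse 4 the log2 ratio was 0.05. Its log2 fold change was -0.58 (SE 0.17, adjusted p = 0.011), and without the replicate block the adjusted p was 0.327.

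Nr4a1 (chr15:101254269-101274795, plus strand), an orphan nuclear receptor, was at 9.19, 5.08, 5.21, 4.12 and 6.69 CPM in TdTomato- libraries and at 9.66, 6.25, 6.58, 6.70 and 8.36 CPM in TdTomato+ libraries. It was higher in 5 of 5 pairs, the groups overlapped, and the log2 fold change was 0.34 (SE 0.11, adjusted p = 0.020). This call was lost with DESeq2 (adjusted p = 0.0568), without mouse 5 (0.0654) and without the replicate block (0.198). Ier2 (chr8:84661331-84662852, minus strand), which encodes a small nuclear protein, was at 40.1, 30.6, 27.2, 27.9 and 32.4 CPM and at 12.6, 9.19, 9.80, 10.7 and 15.6 CPM, without overlap. Its log2 fold change was -1.46 (SE 0.10, adjusted p = 1.0e-06).

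Arc (chr15:74669083-74672570, minus strand), which acts at synapses in the removal of AMPA receptors, showed the largest fitted change and the widest spread of ratios. Its TdTomato- libraries were at 9.54, 5.94, 5.01, 9.03 and 9.20 CPM and its TdTomato+ libraries at 0.816, 1.34, 0.971, 0.304 and 1.04 CPM. These values rest on 125 to 264 reads in the TdTomato- libraries and 7 to 31 reads in the TdTomato+ libraries. The log2 fold change was -3.09 (SE 0.31, adjusted p = 1.5e-05), and the groups did not overlap. The change of Fosb (-2.85, SE 0.20) was within the error of this value. Without mouse 5 the order turned, with Fosb at -2.94 and Arc at -2.78. Dusp1 (chr17:26505590-26562128, minus strand) changed little, from 82.0, 61.6, 60.9, 54.1 and 56.1 CPM to 56.7, 52.9, 59.6, 47.6 and 48.5 CPM. It was lower in 5 of 5 pairs with overlapping groups and a log2 fold change of -0.24 (SE 0.07, adjusted p = 0.011), and without the replicate block the adjusted p was 0.0591.

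**Figure D2:**
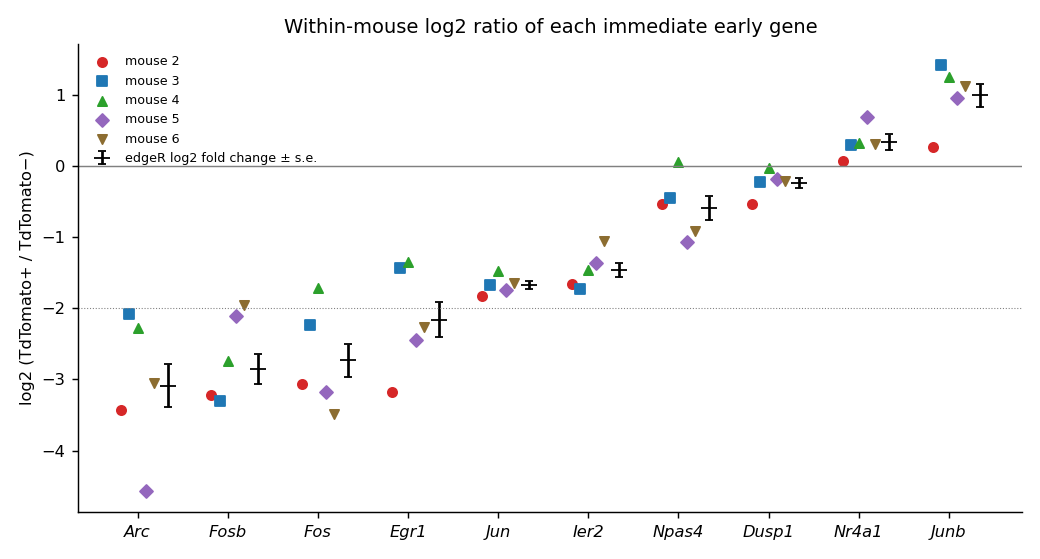
Log2 ratio of TdTomato+ to TdTomato- CPM within each mouse (coloured symbols) and the edgeR log2 fold change with its standard error (black) for each gene, ordered by fold change. The dotted line marks -2. Arc spans from -4.56 to -2.08, while Jun spans from -1.83 to -1.48.

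The ratios varied more between mice than those of most genes. The standard deviation over mice of the within-mouse log2 ratio had a median of 0.44 over the 10 genes and 0.17 over all genes. Of the 10 genes, 9 were above the median of all genes and 6 were above its upper quartile of 0.34. The standard deviation was 1.00 for Arc, 0.76 for Egr1, 0.73 for Fos and 0.62 for Fosb, and 0.13 for Jun. Arc, Egr1, Fos and Fosb were lower in every mouse, but the size of the difference varied between mice by more than that of Jun or Ier2. Counting error also differed, since the TdTomato+ libraries held 7 to 31 reads of Arc and 14 to 104 of Fosb but 1128 to 1353 of Jun, and its part in the spread was not tested.

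Mouse 2 had the highest level of all 10 genes in the TdTomato- libraries and of 7 of the 10 in the TdTomato+ libraries. Over all genes, mouse 2 was highest for 26.3% in the TdTomato- libraries and for 23.6% in the TdTomato+ libraries. Relative to the median of the other 4 mice, Fosb was 7.34-fold, Egr1 5.59-fold, Fos 4.84-fold, Npas4 3.51-fold and Junb 2.53-fold higher in TdTomato- cells of mouse 2. In TdTomato+ cells the same comparison gave 5.52-fold for Fosb, 3.96-fold for Npas4, 3.39-fold for Fos, 2.13-fold for Egr1 and 1.23-fold for Junb. The level of Arc in mouse 2 was 1.27-fold that of the other mice in TdTomato- cells and 0.812-fold in TdTomato+ cells.

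A joint test of the mouse terms in the edgeR fit called 4 of the 10 genes as different between mice, against 1.86% of all genes. These were Fosb (adjusted p = 0.0039), Npas4 (0.018), Fos (0.032) and Egr1 (0.037). Without mouse 2, 0 of the 10 were called by this test and 0 by DESeq2, against 0.734% of all genes in edgeR and 3.94% in DESeq2, so that a count of 0 is near the background of either. At an unadjusted p under 0.05 there were 3 (Fosb, Jun and Dusp1), against 13.8% of all genes, and the adjusted p in edgeR was 0.344 for Fosb, 0.854 for Npas4, 0.706 for Fos and 0.384 for Egr1. The calls of Fos and Egr1 were also lost without mouse 5 (adjusted p = 0.0629 and 0.0793), and that of Fos without mouse 3 (0.0566).

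The levels of each mouse were also set against the mean of the other 4 in the same edgeR fit, a contrast added after the values of mouse 2 had been seen. It restates those values with an error, and mouse 2 is 1 mouse number with 2 libraries, so the differences are a description of that pair of libraries. At an adjusted p of 0.05 or less, 7 of the 10 genes were higher in mouse 2, as were 2.8% of all genes, and 0 were lower, as were 1.3% of all genes. The log2 difference was 2.86 for Fosb (SE 0.19), 2.04 for Egr1 (SE 0.26), 1.95 for Fos (SE 0.23) and 1.84 for Npas4 (SE 0.18). It was 0.87 for Junb, 0.65 for Nr4a1 and 0.32 for Jun. Ier2 (0.33), Arc (0.26) and Dusp1 (0.32) did not pass. Ranked by the size of the difference, Fosb was number 1, Egr1 4, Fos 5 and Npas4 6 of all 14300 genes. For mice 3, 4, 5 and 6, 0 of the 10 genes were higher than in the others, and 0.049%, 0.517%, 0.014% and 0.0699% of all genes were. At an unadjusted p under 0.05, 6 of the 10 were lower in mouse 5, against 2.57% of all genes. By the same rule 1 of the 10 was lower in each of mice 3, 4 and 6 (6.00%, 7.36% and 6.29% of all genes), and 0, 0, 0 and 1 were higher in mice 3 to 6 (6.33%, 7.14%, 3.58% and 5.55%). The values of mouse 2 enter the mean to which each of these mice was compared.

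**Figure D3:**
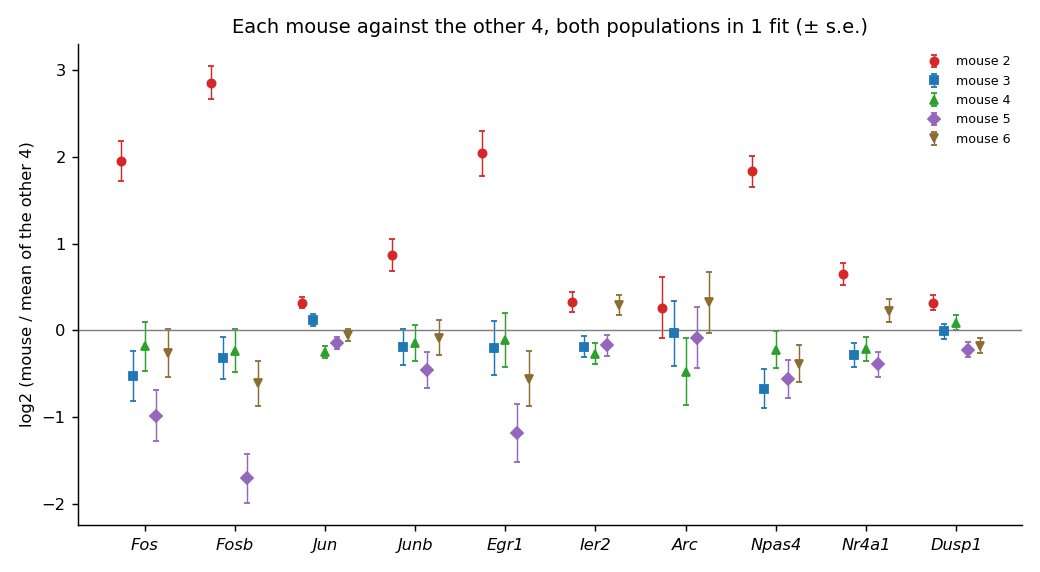
Log2 difference of each mouse from the mean of the other 4, from 1 fit over both populations, with standard errors. Mouse 2 lies at 1.84 to 2.86 for Fos, Fosb, Egr1 and Npas4 and is the highest mouse for every gene except Arc, for which mouse 6 is higher by less than the standard error.

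Several other measurements were compared with the high values of mouse 2. The summed level of 8 heat shock genes (of 10 listed), which as a class respond to protein damage, was 1966 CPM in the TdTomato- library of mouse 2 and 2117 to 2188 CPM in those of the other mice. In TdTomato+ libraries it was 1943 CPM in mouse 2 and 1852 to 1966 CPM in the others, and 0 of the 8 were called between mice by edgeR, by DESeq2 or at an unadjusted p under 0.05 in edgeR. The shares of all genes were 1.86%, 6.57% and 18.8%, so that 0 of 8 is near the background by the adjusted tests. The heat shock sum is carried by Hspa8 and Hsp90aa1, at means of 1095 and 381 CPM in TdTomato- libraries. Hspa1b was at 0.904 CPM there, so the sum says little about genes of low level. The summed level of 8 microglial markers was 71.2 CPM in the TdTomato- library of mouse 2, but 54.9 and 61.4 CPM in mice 5 and 6 and 15.9 and 20.8 CPM in mice 3 and 4. In TdTomato+ libraries the microglial sum was 0.771 CPM in mouse 2 and 1.02 to 1.81 CPM in the others. Markers of neurons moved as well. The summed level of 8 deep-layer glutamatergic markers was lowest in mouse 2, at 1846 CPM against 2151 to 2621 CPM in TdTomato- libraries and at 7013 CPM against 7425 to 8407 CPM in TdTomato+ libraries, and 3 of the 8 (Tbr1, Sox5 and Bcl11b, named after their values were seen) were lower in mouse 2 at an adjusted p of 0.05 or less. The summed level of 8 GABAergic markers was highest in the TdTomato- library of mouse 2, at 1966 CPM against 1572 to 1807 CPM, and was 58.8 CPM in its TdTomato+ library against 51.3 to 76.5 CPM. The part of these cell types in the values of mouse 2 was not tested. All 8 microglial markers in the table (10 were listed) were lower in TdTomato+ cells, with a median log2 fold change of -5.53. Also lower were 5 of 5 erythroid markers, 3 of 4 pericyte markers, 2 of 3 meningeal and fibroblast markers and 1 of 3 endothelial markers. Those lists held 7, 6, 7 and 8 markers before matching to the table, and 39.4% of all genes were lower. Every gene of the table had over 0.5 CPM in at least 5 libraries. A marker near 0 in TdTomato+ cells could enter the table only through its TdTomato- libraries. The lower call of such a marker was fixed in advance. The part of these cells in the lower levels of the immediate early genes was not tested.

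The promoters of Fos, Fosb and Npas4 and of Junb and Nr4a1, the genes with the opposite direction between populations, are shown so that their sequence elements can be compared. All were higher in mouse 2, with smaller log2 differences for Junb (0.87) and Nr4a1 (0.65). Each window runs from 250 bases before to 50 bases after the gene start given by RefSeq on GRCm38.p6, 5′ to 3′ on the gene's own strand. Capitals mark the CRE core TGACG, which reads as CGTCA on the opposite strand, the TATA box TATAAA and the Egr site GCGNGGGCG, searched on both strands. The windows are chr12:85473640-85473939 (plus strand) for Fos, chr7:19309996-19310295 (minus strand) for Fosb, chr19:4989922-4990221 (minus strand) for Npas4, chr8:84978699-84978998 (minus strand) for Junb and chr15:101266596-101266895 (plus strand) for Nr4a1.
Fos: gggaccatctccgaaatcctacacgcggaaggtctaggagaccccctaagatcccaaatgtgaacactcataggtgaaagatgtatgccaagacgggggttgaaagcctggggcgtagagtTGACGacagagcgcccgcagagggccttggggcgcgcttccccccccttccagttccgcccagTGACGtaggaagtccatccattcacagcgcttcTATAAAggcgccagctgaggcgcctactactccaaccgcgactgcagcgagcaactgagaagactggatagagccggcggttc
Fosb: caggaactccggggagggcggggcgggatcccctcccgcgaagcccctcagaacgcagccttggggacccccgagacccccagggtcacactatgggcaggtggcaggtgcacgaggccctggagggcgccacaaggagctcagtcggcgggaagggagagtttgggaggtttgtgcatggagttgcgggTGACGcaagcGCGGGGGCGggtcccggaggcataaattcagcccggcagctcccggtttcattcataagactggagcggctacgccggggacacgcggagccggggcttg
Npas4: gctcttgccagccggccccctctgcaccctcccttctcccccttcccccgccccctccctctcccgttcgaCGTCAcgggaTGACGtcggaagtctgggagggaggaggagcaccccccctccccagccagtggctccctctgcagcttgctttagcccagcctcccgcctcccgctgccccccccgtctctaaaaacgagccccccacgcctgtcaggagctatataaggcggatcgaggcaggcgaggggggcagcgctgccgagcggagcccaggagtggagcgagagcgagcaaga
Junb: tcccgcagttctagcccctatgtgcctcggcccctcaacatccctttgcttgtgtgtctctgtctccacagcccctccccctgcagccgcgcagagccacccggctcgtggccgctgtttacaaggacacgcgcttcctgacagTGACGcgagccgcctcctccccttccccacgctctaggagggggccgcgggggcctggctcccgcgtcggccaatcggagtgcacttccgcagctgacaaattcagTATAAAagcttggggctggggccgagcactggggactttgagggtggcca
Nr4a1: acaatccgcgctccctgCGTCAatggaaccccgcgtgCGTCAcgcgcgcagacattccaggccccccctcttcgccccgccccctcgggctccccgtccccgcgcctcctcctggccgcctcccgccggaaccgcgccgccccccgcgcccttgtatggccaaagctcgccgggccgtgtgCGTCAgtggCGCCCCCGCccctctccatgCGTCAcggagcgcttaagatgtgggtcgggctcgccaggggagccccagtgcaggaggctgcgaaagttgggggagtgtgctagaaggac

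The CRE core was present in 6 of the 7 windows found in the promoter table, in all but that of Jun. It was in 20.8% of all 32851 windows and in 30.5% of the 13605 windows of genes counted here. Counted from the start, it lies at -129 to -125 and at -66 to -62 in Fos, upstream of TATAAA at -33 to -28. In Npas4 it occurs on opposite strands, at -179 to -175 and at -169 to -165. Nr4a1 holds it 4 times. The full CRE, TGACGTCA, which contains the core on both strands, was found in Dusp1 (-143 to -136), in 1.79% of all windows and in 3.12% of those of genes counted here. TATAAA was in the windows of Fos and Junb (13.6% of all windows and 7% of those of genes counted here), and the Egr site in those of Fosb and Nr4a1 (5.55% and 10.8%). In Junb, TATAAA begins at the RefSeq start, which lies upstream of the GENCODE start. The AP-1 site TGANTCA (7.81% and 4.58%) and the CArG box, to which SRF binds (1.63% and 1.32%), were in 0 of the 7 windows. Only matches to these patterns inside the windows were counted. Sites farther upstream and sites of a related sequence were not searched for. The count therefore does not show that these promoters lack AP-1 or SRF sites. The CRE core, TATAAA and the Egr site each occurred both in genes that were lower and in genes that were higher in TdTomato+ cells. The windows of Egr1, Ier2 and Arc were not analysed here.

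A feature of short-lived messenger RNAs is the pentamer ATTTA in the 3′ untranslated region. At 3 or more per kilobase it was present in 5 of the 10 genes (Fos, Jun, Junb, Nr4a1 and Dusp1) and in 20.6% of 12747 genes. The longer element TTATTTATT was in Fos and Dusp1 and in 8.01% of genes, and is shown in capitals with 9 bases on either side, from GENCODE transcripts on GRCm38.
Fos: gttttcaatTTATTTATTaagatggat
Dusp1, the copy nearer the stop codon: agctggtccTTATTTATTtaacacccc
Dusp1, the copy nearer the end: tttttacctTTATTTATTtttgtgtag

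Set against their own families, the genes differed in how much of the family they made up. With CPM divided by the exonic length in kilobases (RPKM), Fos was 79.3% of the summed level of Fos, Fosb and Fosl2 in TdTomato- cells and 16.2% in TdTomato+ cells. Fosl2, which encodes the Fos relative Fra-2, took the opposite course, at 10.7% and 82.0%. Its level rose from 13.5 ± 5.24 CPM to 107 ± 41.4 CPM (SD, n = 5), with a log2 fold change of 2.98 (SE 0.09, adjusted p = 8.0e-09). The family as a whole was at 17.9 ± 15.8 RPKM and 13.4 ± 4.86 RPKM (SD, n = 5). The TdTomato- mean rests on mouse 2, whose sum was 46.0 RPKM against 9.47 to 14.3 RPKM in the other mice. Without mouse 2 the sums were 10.8 ± 2.35 RPKM in TdTomato- and 11.7 ± 3.63 RPKM in TdTomato+ cells (SD, n = 4), so the order of the means turned, within their spread. Only in mouse 5 was the sum higher in TdTomato+ cells (15.5 against 9.47 RPKM), so this order rests on 1 pair. The shares of Fos without mouse 2 were 78.8% and 14.7%. In the Jun family, Jund was the most abundant gene, at 73.9% and 80.9%, Jun made up 24.9% and 14.7%, and Junb 1.20% and 4.39%. Jund was lower in TdTomato+ cells (log2 fold change -0.79, SE 0.04, adjusted p = 1.3e-07). Nr4a1 was the smallest part of the Nr4a family, at 13.5% and 3.31%. Its relatives Nr4a2 (log2 fold change 2.50, SE 0.11) and Nr4a3 (2.49, SE 0.09) rose with adjusted p of 7.1e-08 and 1.8e-08, and the family sum was 12.9 ± 1.98 and 65.7 ± 11.5 RPKM (SD, n = 5). Egr1 was 94.3% and 83.0% of the sum of Egr1 and Egr3, and Egr3 had a log2 fold change of -0.37 (SE 0.20, adjusted p = 0.113).

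**Figure D4:**
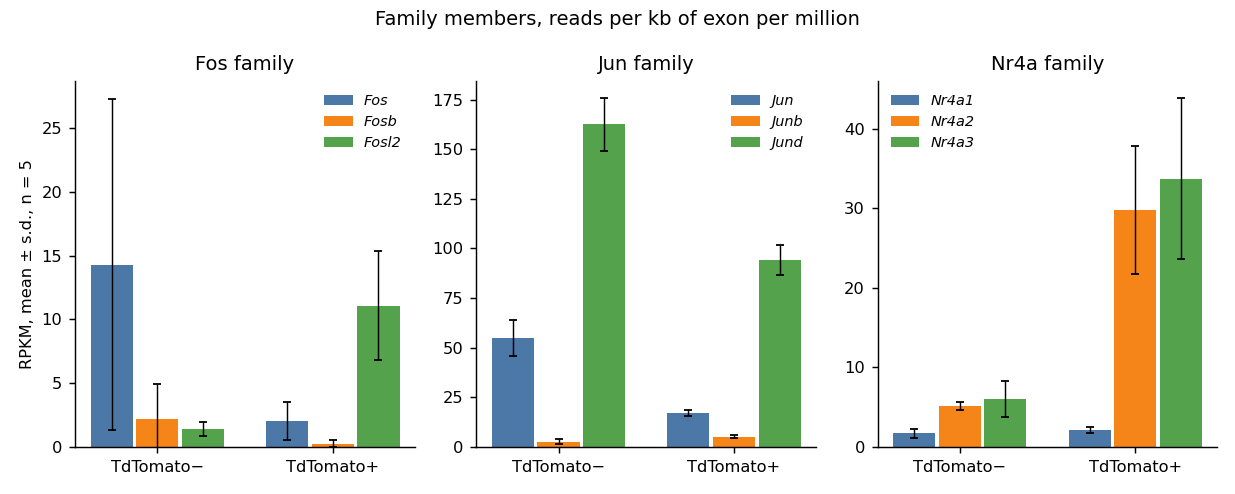
Mean level in RPKM (bars, from 0) with the standard deviation over 5 mice, for the Fos, Jun and Nr4a families in TdTomato- and TdTomato+ cells. Fosl2 rises from 1.39 to 11.1 RPKM while Fos falls from 14.3 to 2.03 RPKM, and Nr4a2 and Nr4a3 stand above Nr4a1 in both populations.

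Per length, the order of the 10 genes in TdTomato- cells was Jun (55.0 ± 8.98 RPKM), Ier2 (20.8 ± 3.41), Dusp1 (19.0 ± 3.35), Fos (14.3 ± 12.99) and Egr1 (12.3 ± 13.6), followed by Junb, Arc, Fosb, Nr4a1 and Npas4 at means of 1.40 to 2.73 RPKM (SD, n = 5). The lower part of this order rests on mouse 2. Without it the TdTomato- means were 8.55 RPKM for Fos, 6.23 RPKM for Egr1 and 0.907 RPKM for Fosb, and Fosb was then the lowest, under Npas4 (0.931 RPKM) and Nr4a1 (1.504 RPKM), and Arc (2.39 RPKM) was above Junb (2.10 RPKM). With all mice, Jun stood clear of the rest, whereas Ier2, Dusp1, Fos and Egr1 lay within the spread of their neighbours in this order. In TdTomato+ cells Jun (17.1 ± 1.61 RPKM, SD, n = 5) and Dusp1 (16.0 ± 1.56 RPKM, SD, n = 5) were within each other's spread at the head of the order, and Arc (0.0996 to 0.440 RPKM) and Fosb (0.0975 to 0.755 RPKM) were the lowest.

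Other rapidly induced and activity-regulated genes were called in both directions, at shares near those of all genes (37.9% higher and 39.4% lower). Over 5 further lists, 53 of 63 listed genes were in the table, of which 23 were higher, 21 were lower and 9 did not pass the test. Among the AP-1 and partner bZIP genes, 3 of 6 were higher and 3 lower, with Mafk (1.23) and Mafg (0.28) on the higher side with Fosl2, and Jdp2 (-1.83) and Maff (-1.15) on the lower side with Jund, all as log2 fold changes. Of the Egr, Nr4a and Nab genes, 4 of 5 were higher, among them Nab1 (1.97), a corepressor of Egr proteins. Of 20 other rapidly induced genes, 8 were higher and 9 lower. The lowest were Zfp36l1 (-5.05), which promotes decay of ATTTA-containing messenger RNAs, Btg2 (-2.69), an antiproliferative gene, and Gadd45g (-2.55), and the highest were Plk2 (1.74), Ier5 (1.07) and Gadd45b (1.04).

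Of 8 other dual specificity phosphatases, 3 were higher and 4 lower. Dusp6, a cytoplasmic phosphatase of MAP kinases, was higher (2.00), as were Dusp8 (1.05) and Dusp7 (0.42), and Dusp10 (-4.33), Dusp16 (-4.17) and Dusp14 (-2.23) were lower. Of 14 genes listed as effectors regulated by neuronal activity, 5 were higher and 5 lower. The highest were Homer1 (1.56, all its transcripts counted together), Scg2 (1.26), a granule protein, and Sik1 (1.03), a kinase that restrains CREB coactivators. Gem (-4.13), Nptx2 (-2.86) and Rgs2 (-1.39) were the lowest. The median log2 fold change was -0.25 for the AP-1 list, 1.97 for the Egr, Nr4a and Nab list, -0.24 for the rapidly induced list, -0.22 for the phosphatases and 0.03 for the effectors.

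**Figure D5:**
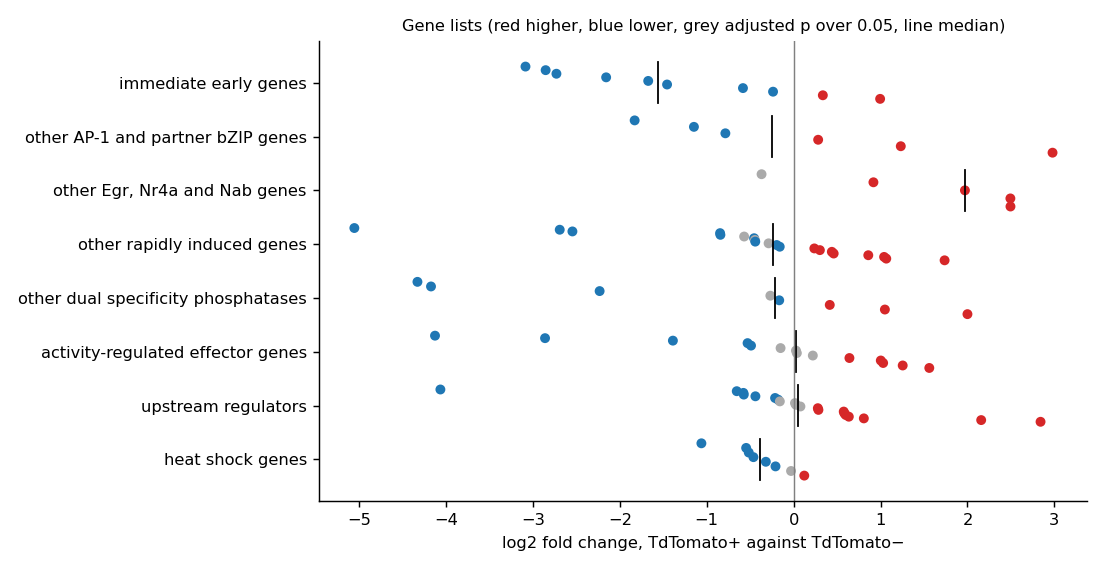
Log2 fold change of each gene (points) in the immediate early genes and 7 further lists, with the list median as a line. Red and blue points passed an adjusted p of 0.05 as higher or lower in TdTomato+ cells, and grey points did not. The median of the immediate early genes is -1.57, and those of the other lists lie between -0.39 and 1.97.

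Of 20 upstream regulators, 9 were higher, 7 were lower and 4 did not pass, which is again near the shares of all genes. Among the most abundant were Mef2c, a calcium-regulated transcription factor (2.84), Crtc1, a CREB coactivator (0.81), and Creb1 (-0.44). Of the 8 heat shock genes, 1 was higher and 6 were lower. Beside the 2.8% of all genes that were higher in mouse 2 and the 1.3% that were lower, 2 of the 53 genes of the 5 lists (Fosl2 and Jund) were higher and 4 (Ier5, Dusp4, Dusp14 and Nrn1) were lower. Of the upstream regulators 4 were higher in mouse 2, namely Srf (log2 difference 0.61), Crtc2 (0.45), Mef2c (0.39) and Crtc1 (0.20). These genes were named after their values in mouse 2 were seen, and Srf is itself a target of the SRF protein.

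Among the genes other than the 10, with a mean log2 CPM of at least 3, whose deviations from the population means followed the mean deviation of the 10 genes most closely over the 10 libraries were Snx14 (Pearson's r = 0.982), Metap1d (0.973), Zw10 (0.972) and Pbx4 (0.965). These correlations are a description, since the libraries come in pairs from 5 mice and the mean deviation itself is set by mouse 2, at 1.08 in its TdTomato- library and 0.69 in its TdTomato+ library against -0.59 to 0.07 in the other libraries (log2 scale). Snx14, for example, was at 24.0 CPM in the TdTomato- library of mouse 2 and at 17.8 to 19.3 CPM in those of the other mice. Among the 10 genes, r with the mean deviation was highest for Egr1 (0.972), Fos (0.962) and Junb (0.952) and lowest for Arc (0.451) and Ier2 (0.553).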

How the data were processed

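The table deposited by the authors holds whole-number counts per gene, not normalized, made by trimming, aligning to GRCm38 with STAR 2.4.2a (at most 1 mismatch, unique reads) and counting with its quantMode option. Their processing notes also name edgeR 3.28.0. The annotation release and strand column are not given in the sources used here, and the labels and the methods differ on library kit and read length. Every gene of the table had over 0.5 CPM in at least 5 libraries. The test was the 2-sided quasi-likelihood F-test of edgeR 4.0.16 (R 4.3.3) after filterByExpr and TMM scaling, with a term for each mouse number and Benjamini-Hochberg adjustment over 14300 genes. Standard errors were taken from the F statistic. No 2 libraries were identical. Deviations of same-numbered libraries from the population means correlated at 0.186 to 0.316 across genes, and each number carries both populations, so the numbers were used as pairs. A prior count of 2 entered log2 CPM. Gene lengths, symbols and positions came from GENCODE on GRCm38, which named 14271 genes, and promoters from RefSeq for 7 of the 10 genes. The members and lists were chosen with earlier results of these data known. All members and the 3 largest called changes in each direction of each of 5 lists were named, with up to 4 abundant examples of other lists and the 5 genes most like the member mean. Of these named genes, 2 are not reported here. The fit was tested on simulated data. Alternatives were DESeq2 1.42.0, other normalizations, filters and dispersion estimates, no block, and each mouse left out.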

Additional observations from a re-analysis of the deposited data

Results flagged for a closer look

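For 4 of the 20 sets of 5 libraries examined (10 genes in each population), the library of mouse 2 was farther from its nearest neighbour, as a share of the whole range on the log2 scale, than Dixon's test allows at the 95% level. All were TdTomato- libraries. The share was 0.845 for Egr1, 0.821 for Junb, 0.79 for Npas4 and 0.72 for Fos. Chance flags about 1 in 20 such sets, and the 4 sets share 1 library, so they are not independent.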

How the results depend on the processing

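The count of 8 lower genes was 6 without the replicate block and 8 under every other alternative run. The count of 2 higher genes was 1 with DESeq2 and 1 without the replicate block, and 1 to 2 with a mouse left out, the loss being that of Nr4a1. Without the block, which takes account of the pairing, Npas4 and Dusp1 also lost their calls, and the block changed no other call of the 10 genes. The 4 genes called between mice became 2 with robust estimation, where Fos (adjusted p = 0.0909) and Egr1 (0.135) were lost, 6 with DESeq2, where Jun (0.00454) and Junb (0.0224) were gained, and 0 to 4 with a mouse left out. Over all genes, 266 were called between mice, 347 with robust estimation, 939 with DESeq2, and 74 to 205 with a mouse left out. The cause of these changes was not tested, beyond the smaller number of samples when a mouse is left out. Every fold change of the 10 genes kept its direction under every alternative. The 7 to 31 reads of Arc in TdTomato+ libraries limit the precision of its fold change, whose range with a mouse left out was -3.37 to -2.78. The labels do not say that the numbers are separate litters or embryos, and p-values measure the spread between these samples, which may be technical in part.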
